A study of Homo sapiens with 6 samples.

Results

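The 3 control libraries of SW480 cells were described here on their own, gene by gene, as the baseline against which such an experiment is read. They were picked by their sample label and not by any measured value, and they are 3 of the 6 libraries of the series. SW480 is an established epithelial line from a human colon adenocarcinoma, labelled as a tumor cell line. The labels number the control libraries as replicates 1 to 3 but do not say whether they came from separate cultures, so the spread between them may be technical. Every library, controls included, carries the label of a plasmid transfection, and no label names the plasmid of the controls. The levels below are therefore those of transfected cells of 1 line, not of untouched cells. The other 3 libraries, labelled as exercised, were not compared here.

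Colon epithelium is renewed from stem cells at the crypt base, where Wnt signalling through β-catenin keeps cells dividing. As cells move up the crypt they leave the cycle and become absorptive colonocytes, mucus-secreting goblet cells or hormone-secreting enteroendocrine cells, each with its own marker genes. Most colorectal cancers lose APC, which holds β-catenin in check, and keep the Wnt programme of the crypt base. An established line also carries the record of its origin in its homeobox genes, its keratins and the choice it makes between the paralogues of a family.

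Expression was deposited as FPKM, a read count scaled by gene length and library size, for 19225 gene symbols. The library totals inferred from these values were 44729596, 35653629 and 40235861 reads in replicates 1 to 3, of which 99.6% lay on the listed genes. A gene was called detected where it reached 1 FPKM in all 3 libraries, and silent where it was listed at 0 in all 3. A gene at 0 in all of them had no read among 120619086, and a count of 0 allows up to 3 reads in that total. Replicate 3 stood apart from replicates 1 and 2. The median absolute difference between libraries was 0.144 on the log2 scale between replicates 1 and 2, 0.221 between 1 and 3 and 0.236 between 2 and 3. Results that rest on replicate 3 are given below with and without it.

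The identity markers of the line were all detected. *KRT8* and *KRT18*, the keratin pair of simple epithelia, were at 1876, 1767 and 1660.1 FPKM and at 1760.1, 1666 and 1590.2 FPKM in replicates 1 to 3. *EPCAM*, an adhesion molecule of epithelial cells, was at 164, 161 and 167 FPKM. *CDX2*, the homeobox factor that specifies intestine, was at 12.3, 12.6 and 14.2 FPKM, and *AXIN2*, a feedback target of Wnt signalling, at 109, 105 and 115 FPKM. The highest library exceeded the lowest by 1.04-fold for *EPCAM* and by 1.15-fold for *CDX2*, the narrowest and widest of these 5 markers. Markers of other cell types were near 0 with few exceptions. The counts that follow stand beside 60.6% of all genes detected and 12.5% silent. Of 16 leukocyte markers 1 was detected, *CD68*, a lysosomal protein, at 4.54 ± 0.41 FPKM (SD, n = 3), while *PTPRC*, the pan-leukocyte phosphatase CD45, had a mean of 0.00851 FPKM and *CD3D*, *CD2* and *MS4A1* were silent. Of 10 fibroblast markers 1 was detected, *COL1A1* at 2.55 ± 1.07 FPKM, with *FAP* and *POSTN* silent. None of 8 endothelial markers was detected, with *CDH5* and *EMCN* silent. Of 10 hepatocyte markers 1 was detected, *SERPINA1*, a secreted protease inhibitor, at 79.2 ± 3.98 FPKM, with a mean of 0.0579 FPKM for *ALB*. Of 9 neural markers 3 were detected, led by *MBP* at 14.2 FPKM, and of 10 muscle markers 2 were detected, *TNNI3* at 14 FPKM and *DES* at 3.36 FPKM, with *MYOD1*, *MYH6* and *MYH7* silent. In bulk RNA, fewer cells of a type and less RNA per cell cannot be told apart.

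Of the 19225 genes, 11655 (60.6%) were detected and 2409 (12.5%) were silent. Another 709 genes reached 1 FPKM in only 1 or 2 of the 3 libraries. The level was concentrated in a small part of the genome. The 32 genes at 1000 FPKM or more held 12.1% of the summed level and the 611 genes between 100 and 1000 FPKM held 36.0%, so that 722 genes carried 50% of it. The 2406 genes with a mean of 0.1 to 1 FPKM held 0.255% of it, and the 2387 genes above 0 with a mean under 0.1 FPKM held 0.0196%.

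**Figure D1:**
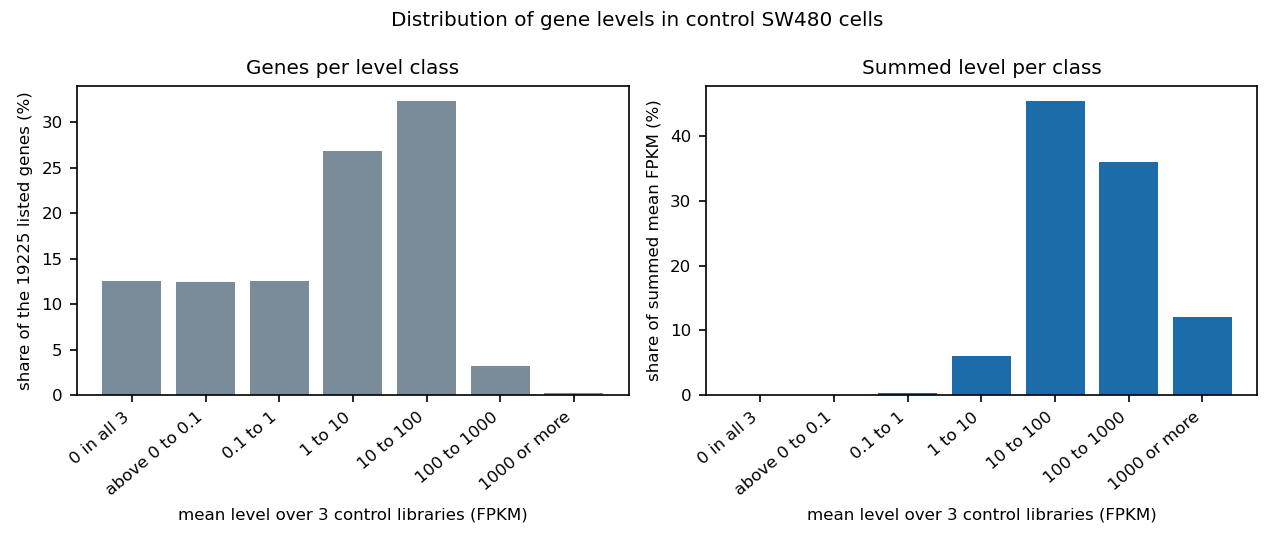
Share of the 19225 listed genes (left) and of the summed mean FPKM (right) in 7 classes of mean level over the 3 control libraries. The class of 10 to 100 FPKM was the largest in both panels, with 32.4% of the genes and 45.5% of the summed level, while the 12.5% of genes at 0 appear in the left panel alone.

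The 20 most abundant genes were housekeeping, translation, iron storage and cytoskeletal genes, with the keratins of the line among them. They held 8.84 ± 0.353% of the FPKM total (SD, n = 3). *GAPDH*, a glycolytic dehydrogenase, was highest with 3728, 3408 and 3512 FPKM, and *EEF1A1*, the elongation factor that brings tRNAs to the ribosome, next with 2669.8, 2609 and 2749 FPKM. The ferritin chains that store iron held ranks 3 and 15, *FTH1* at 2663 ± 268 and *FTL* at 1309 ± 129.6 FPKM. The cytoplasmic actins *ACTB* at 2362 ± 306 and *ACTG1* at 2183 ± 362 FPKM followed *FTH1*. *KRT8* and *KRT18*, at means of 1768 and 1672 FPKM, held ranks 7 and 8, above *ENO1*, *LDHA* and 5 of the 6 ribosomal proteins in this group. Those 6 were *RPS2*, *RPLP1*, *RPL13A*, *RPL8*, *RPL3* and *RPLP0*, from 1178 to 2042 FPKM. The rest were *PTMA* (prothymosin α, 1579 FPKM), *TMSB10* (thymosin β10, which binds actin monomers, 1519 FPKM), *ANXA2* (annexin A2, which binds membranes with calcium, 1369 FPKM) and *HSPA8* (the constitutive HSP70 chaperone, 1174 FPKM). Of these 20 genes, 11 were also among the 20 with the most reads, since long transcripts collect reads that FPKM divides by length.

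Translation and glycolysis took a large part of the transcriptome. All 79 cytosolic ribosomal protein genes were detected and held 11.7 ± 0.242% of the FPKM total (SD, n = 3), with a median of 549 FPKM against 4.06 FPKM over all listed genes. Among their lowest members were *RPS10* at 2.32 and *RPL36A* at 7.15 FPKM. These have near-identical copies or overlapping readthrough genes, to which the counting can assign reads, so their low values are uncertain. All 14 glycolysis enzymes were detected and held 2.75 ± 0.128%, with *GAPDH*, *ENO1* at 1546 and *LDHA* at 1357 FPKM as the highest and *HK2*, a hexokinase, at 35.7 FPKM as the lowest. All 29 cell cycle genes and all 18 cholesterol synthesis genes were detected as well, against 60.6% of all genes, with medians of 63.8 and 24.0 FPKM. Among the former, *MCM7*, a subunit of the replicative helicase, was at 252 ± 19.8 FPKM and *PCNA*, the sliding clamp of DNA polymerase, at 238 ± 9.62 FPKM.

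The transcription factors of colon epithelium were present in part. Of 28 such factors, 15 (53.6%) were detected, against 60.6% of all genes, 1 was silent and 12 lay between. *SOX9*, a factor of crypt progenitors, was highest with 49.2, 51.2 and 60.3 FPKM, followed by *KLF5*, a zinc finger factor of dividing crypt cells, with 36.3, 37.3 and 37.8 FPKM. The epithelial ETS factors *EHF* and *ELF3* were at 26.4 ± 3.18 and 18.7 ± 5.82 FPKM. Next came *HES1*, the Notch effector that opposes secretory fate, at 14.3 ± 4.09 FPKM, *CDX2* at 13.1 ± 1.02 FPKM, *ASCL2*, a Wnt-driven stem cell factor, at 10.6 ± 2.62 FPKM and *KLF4*, a factor of differentiated cells, at 9.75 ± 1.39 FPKM. Factors of mature intestine were low. *HNF4A*, a nuclear receptor of enterocytes, was at 3.59, 3.21 and 5.19 FPKM. *GATA6* was at 0.562, 0.721 and 1.82 FPKM, below 1 FPKM in replicates 1 and 2 and above it in replicate 3. The secretory factors *ATOH1*, *SPDEF* and *NEUROG3* had means of 0.0617, 0.0825 and 0 FPKM, and *CDX1*, *ISX* and *GATA4* had means of 0.0339, 0.0114 and 0.010 FPKM.

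Structural genes of epithelium were higher than its transcription factors. Of 22 genes of structure and adhesion 16 (72.7%) were detected, against 60.6% of all genes, with a median of 27.0 FPKM against 1.99 FPKM for the transcription factors. *KRT19*, the smallest simple keratin, was at 1066, 918 and 1086 FPKM. The tight junction genes *CLDN4* and *CLDN7* were at 99.3 ± 25.4 and 79.996 ± 6.07 FPKM, *JUP* and *DSP* of desmosomes at 70.8 ± 9.5 and 51.5 ± 3.05 FPKM, and the catenins *CTNNA1* and *CTNND1* at 246 ± 18.4 and 50.02 ± 3.45 FPKM. *CDH1*, E-cadherin, was at 19.6, 20.04 and 21.7 FPKM, with 1.11-fold between the highest and lowest library. By contrast, some members by which colon tumours are often recognised were at or near 0, while the surface molecule *EPCAM* was abundant, as given above. *CEACAM5*, carcinoembryonic antigen, was at 0.00717, 0 and 0.0638 FPKM, *CEACAM6* was silent, and *CDH17*, *LGALS4* and *GPA33* had means of 0.0807, 0.112 and 0.121 FPKM. *VIL1*, an actin bundler of the brush border, was at 3.45 ± 0.575 FPKM and *KRT20*, the keratin of surface colonocytes, at 0.369 ± 0.118 FPKM.

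Genes of mature colon cell types were almost all undetected. Of 28 genes of colonocytes, goblet cells, enteroendocrine cells and tuft cells, 2 (7.14%) were detected, 11 were silent and 15 lay between. Over all genes 60.6% were detected and 12.5% were silent. The detected pair was *SLC9A3*, a sodium-proton exchanger of the apical membrane, at 12.6, 10.3 and 11 FPKM, and *CA2*, a carbonic anhydrase, at 8.79, 9.69 and 11.3 FPKM. The silent genes were the colonocyte genes *FABP1*, *GUCA2A*, *GUCA2B*, *CEACAM7*, *MS4A12* and *SI*, the goblet cell genes *TFF3*, *CLCA1* and *ZG16*, and the hormone genes *INSL5* and *GCG*. *MUC2*, the main mucin of colonic mucus, was at 0.070, 0.111 and 0.0807 FPKM, and *CHGA*, chromogranin A of hormone granules, at 0.148, 0.0463 and 0.0821 FPKM. The plot of colon genes by library shows this contrast, with structural genes to the right and genes of mature cells to the left of 1 FPKM.

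**Figure D2:**
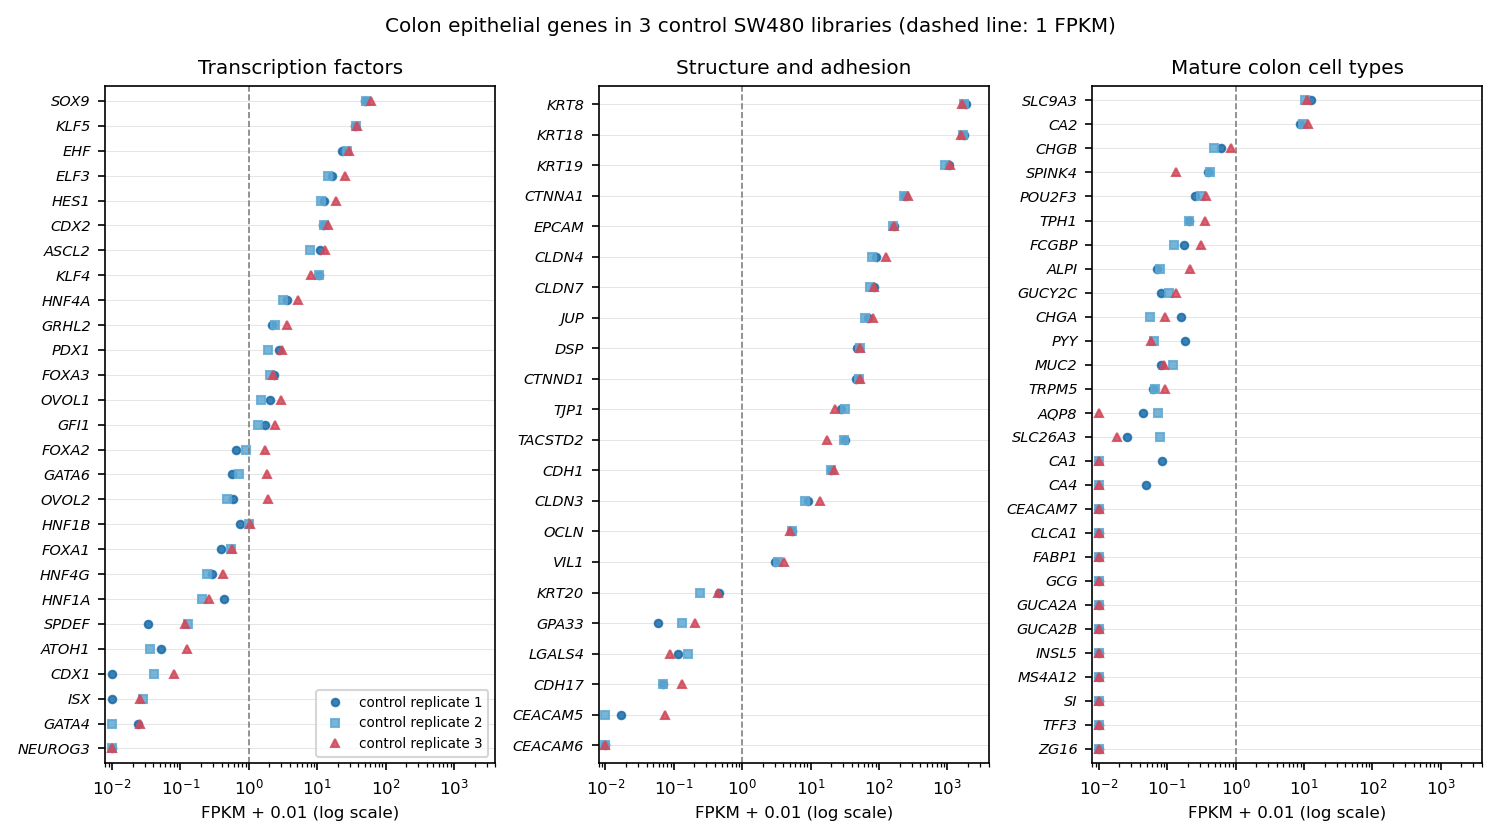
FPKM + 0.01 on a log axis of 27 transcription factors, 22 structural and adhesion genes and 28 genes of mature colon cell types, with 1 point per control library (circles, squares and triangles for replicates 1, 2 and 3) and a dashed line at 1 FPKM. In the right panel *SLC9A3* and *CA2* alone lie above the line in all 3 libraries, against 16 genes in the middle panel and 14 in the left panel.

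Wnt target genes were expressed with a single exception. Of 20 targets, 19 (95%) were detected, against 60.6% of all genes, with a median of 31.5 FPKM. *CCND1*, cyclin D1, was at 522, 535 and 363 FPKM and *MYC* at 212, 195 and 117 FPKM, both lowest in replicate 3. As a list the targets went the other way, with 15 of 19 highest in replicate 3 and 4 lowest. Feedback inhibitors of the pathway were abundant. *DKK1*, which blocks the LRP co-receptors, was at 173, 179.7 and 132 FPKM, *APCDD1*, an inhibitor at the membrane, at 127 ± 28.1 FPKM, *AXIN2* at 109.9 ± 5.1 FPKM, *NKD1*, which binds Dishevelled, at 31.3 ± 8.54 FPKM, and *NOTUM*, which removes the lipid from Wnt ligands, at 18.3 ± 3.04 FPKM. The ubiquitin ligases that clear Frizzled receptors, *RNF43* and *ZNRF3*, were at 31.8 ± 4.7 and 13.9 ± 1.35 FPKM. The exception was *LGR5*, the R-spondin receptor that marks crypt base stem cells, at 0.0198, 0.0124 and 0 FPKM. In contrast, the other stem cell target *ASCL2* was detected in all 3 libraries.

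Of 17 genes of mesenchyme and epithelial-mesenchymal transition, 11 (64.7%) were detected, close to the 60.6% of all genes. *S100A4*, a calcium-binding protein linked to motility, was at 463, 459 and 501 FPKM and *VIM*, vimentin, at 202, 174 and 186 FPKM, with 1.09-fold and 1.16-fold between the highest and lowest library. *TGFBI* and *FN1*, proteins of the extracellular matrix, were at 173 ± 6.96 and 31.1 ± 2.92 FPKM. The transcription factors of this programme were low, with *SNAI1* at 5.46 ± 1.17, *ZEB1* at 1.64 ± 0.35, *TWIST1* at 0.778 ± 0.0957 and *SNAI2* at 0.673 ± 0.0287 FPKM. *CDH2*, N-cadherin, had a mean of 0.00457 FPKM and *ZEB2* of 0.0018 FPKM. Vimentin and N-cadherin, which are often read as a pair, thus lay near opposite ends of this list, and *CDH1* remained detected.

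The HOX genes record position along the body axis. Of 39 genes 28 (71.8%) were detected, against 60.6% of all genes, and none was silent. At a threshold of 5 FPKM 13 of the 39 were detected, against 8660 of all 19225 genes. HOX genes thus did not stand above all genes at that threshold. The HOXB cluster held the highest levels, with 9 of 10 genes detected and a median of 17.3 FPKM. *HOXB6* was at 57.9, 56.3 and 62.5 FPKM, *HOXB8* at 48.7, 39.97 and 39.3 FPKM and *HOXB7* at 40.6, 38.4 and 43.5 FPKM. These 3 neighbours were flanked by lower levels, with *HOXB5* at 16.7 FPKM on one side and *HOXB9* at 17.8 FPKM on the other. At the ends of the cluster, *HOXB13*, a gene of the most posterior gut, was at 2.74, 3.25 and 6.09 FPKM, and *HOXB1*, of the hindbrain, had a mean of 0.0163 FPKM. In the HOXA cluster 10 of 11 genes were detected, with *HOXA9* at 30.2, 29.5 and 37.5 FPKM as the highest and *HOXA2* at 0.453, 0.678 and 0.475 FPKM as the one undetected gene. The HOXC cluster had 6 of 9 genes detected, with *HOXC10* highest at 8.37 ± 2.88 FPKM, and the HOXD cluster 3 of 9, with *HOXD9* highest at 2.26 ± 0.247 FPKM. The clusters were thus ordered HOXB, HOXA, HOXC and HOXD by their summed level, with shares of 0.0574%, 0.0215%, 0.00664% and 0.00201% of the FPKM total. That order was the same in each of the 3 libraries.

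**Figure D3:**
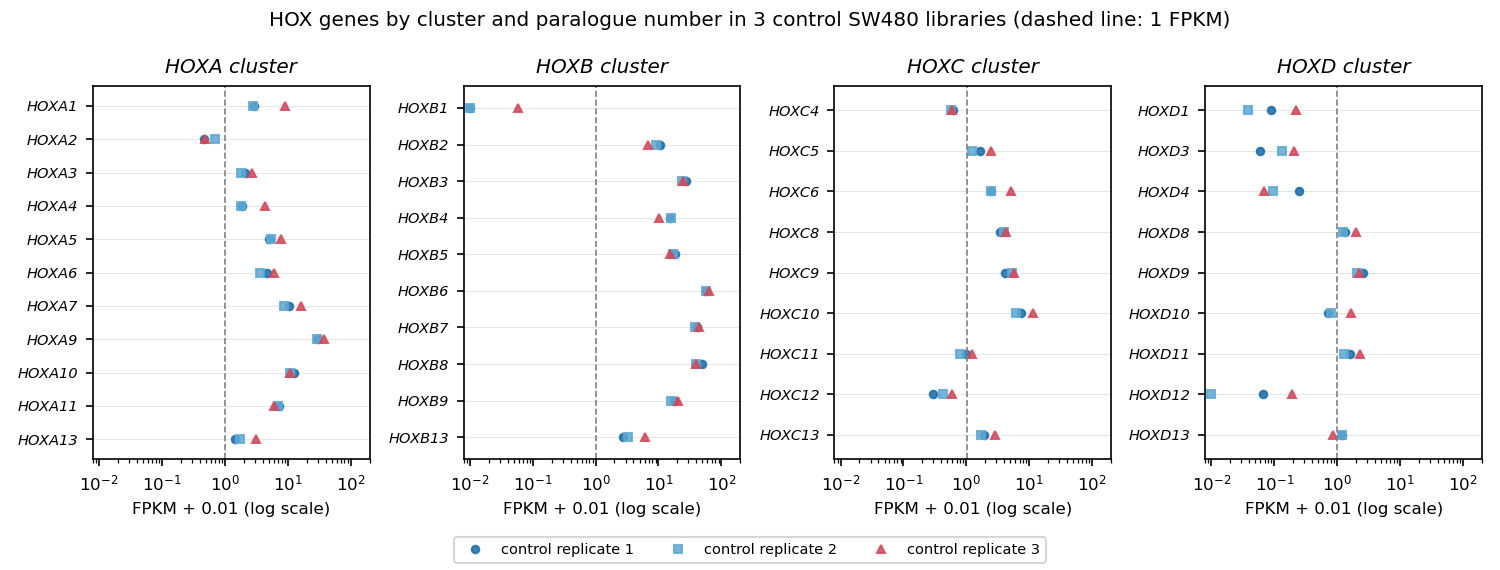
FPKM + 0.01 on a log axis of the 39 HOX genes by cluster and paralogue number, with 1 point per control library (circles, squares and triangles for replicates 1, 2 and 3) and a dashed line at 1 FPKM. *HOXB3* to *HOXB9* lie above 10 FPKM in every library, while *HOXD1*, *HOXD3* and *HOXD4* stay below 1 FPKM.

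Oncogenes were largely detected. Of 42 oncogenes, 37 (88.1%) were detected and none was silent, against 60.6% of all genes. Beside *CCND1* and *MYC*, *GNAS*, a G protein α subunit, was at 281, 258 and 287 FPKM, *CTNNB1*, β-catenin, at 249, 269 and 262 FPKM and *BCL2L1*, which encodes the survival protein BCL-XL, at 199, 188 and 149 FPKM. *BCL2*, its relative, was at 0.50, 0.496 and 0.697 FPKM. Among receptor kinases, *EGFR* was at 36.7, 46.6 and 34.8 FPKM and *MET* at 27 ± 4.36 FPKM, with *ERBB2* at 19.3 ± 3.09 and *IGF1R* at 4.65 ± 1.4 FPKM. The receptors *KIT* and *PDGFRA*, which mark other lineages, had means of 0.0682 and 0.00501 FPKM. *TERT*, the catalytic subunit of telomerase, was at 1.21, 0.901 and 0.633 FPKM, from 439 reads in all, and passed 1 FPKM in replicate 1 alone. *MYCN* had a mean of 0.0238 FPKM. These are levels of RNA and say nothing of mutation.

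Tumour suppressor genes were detected about as often as oncogenes, with 39 of 44 (88.6%), 3 silent and 2 between. Of all genes, 60.6% were detected and 12.5% were silent. *CDKN1A*, the p21 inhibitor of cyclin-dependent kinases, was highest with 87.9, 76 and 131 FPKM, and *BAX*, a pore-forming apoptosis protein, was at 77, 68.3 and 76.9 FPKM. The mismatch repair genes *MSH6* and *PMS2* were at 42 ± 3.73 and 8.73 ± 0.835 FPKM. *APC* was at 5.89, 6.61 and 7.46 FPKM and *SMAD4*, the common mediator of TGF-β signalling, at 4.21, 4.69 and 3.81 FPKM. *CDKN2A*, which encodes p16 and is often silenced in colon tumours, was at 39.5, 32.4 and 44 FPKM. Values per gene do not show which transcripts of *CDKN2A* these were, so that of p16 cannot be read from them. The 3 silent genes, *SFRP1*, *SFRP2* and *WIF1*, all encode secreted proteins that bind Wnt ligands. *HIC1*, a transcriptional repressor, had a mean of 0.409 FPKM and *DCC*, a netrin receptor, of 0.00556 FPKM. Among the Wnt inhibitors named here, *DKK1*, *APCDD1*, *AXIN2*, *NKD1* and *NOTUM* were thus detected, while *SFRP1*, *SFRP2* and *WIF1* were silent.

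Germ cell genes were off with a few exceptions. Of 28 cancer-testis and germ cell genes with a value, 4 (14.3%) were detected and 9 were silent, against 60.6% and 12.5% of all genes. *MAGEB2* was at 49.3, 50.2 and 49.3 FPKM, nearly equal in the 3 libraries, *MAGEA6* at 25, 23.6 and 19.2 FPKM and *PRAME* at 9.62, 9.49 and 13.4 FPKM. *MAGEA1*, *MAGEA4* and *MAGEA10*, of the same MAGE group as *MAGEA6*, were silent, as were *CTAG1B*, *CTAG2*, *SSX2*, *PAGE5*, *DAZL* and *SYCP1*. *MAGEA6* has a close copy in *MAGEA3*, which was not analysed here, so its reads may not be its own. *KDM5B*, the fourth detected gene at 7.12 ± 1.37 FPKM, is a histone demethylase that many tissues express. *POU5F1* and *NANOG* of pluripotent cells had means of 0.674 and 0.0366 FPKM.

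Paralogue choice was compared in 79 gene families with 285 members, of which 197 (69.1%) were detected, against 60.6% of all genes. A member was said to lead where it was at least 2-fold above every other member in all 3 libraries and detected. A leading member was found in 47 families, and in 27 of these it was at least 10-fold above the second by mean or the second was at 0. A single member was detected in 17 families, every member in 35 and none in 1, the HNF1 factors. The median log2 ratio of leading to second member was 3.6. For 5 leads the second member was at 0. These lie above the median also when set to the limit of 3 reads, so that setting could not move it. The first member by mean was above the second by mean in all 3 libraries in 76 of the 79 families. Each pair was ranked from these same values. An exact two-sided sign-flip permutation test of each log2 ratio gave p = 0.25 for the 76, the smallest p that 3 libraries allow. The ratios and their SD therefore carry the comparison. In the other 3 families, *FGFR1* with *FGFR4*, *LGR6* with *LGR4*, and *MUC13* with *MUC1*, the order changed between libraries.

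In metabolic families a member led in 13 of 18. *PKM*, a pyruvate kinase gene whose splice forms are not told apart here, was at 1079 ± 53.7 FPKM. *PKLR*, the pyruvate kinase of liver and red cells, was at 0.0109 FPKM, a log2 ratio of 13.26 ± 0.26. *ALDOA* was at 1089 ± 132 FPKM against 51.8 ± 5.46 FPKM for *ALDOC*, and *ENO1* led *ENO2*, the enolase of neurons, by a log2 ratio of 4.68 ± 0.22. *PGK2* and *PDHA2*, the testis copies of *PGK1* at 525 ± 37.8 FPKM and *PDHA1* at 38.2 ± 3.27 FPKM, were silent. *GAPDHS*, the testis copy of *GAPDH*, was detected at 10.7, 10.1 and 9.33 FPKM, although 8.46 ± 0.08 lower on the log2 scale than *GAPDH*. For cytochrome c oxidase, the ubiquitous subunits *COX4I1*, *COX6A1* and *COX7A2* led at 241, 199 and 72.1 FPKM, the muscle subunit *COX6A2* was silent, and *COX4I2* and *COX7A1* had means of 0.0656 and 0.157 FPKM. *CKB*, brain-type creatine kinase, led its family at 135 ± 16.2 FPKM. Where no member led, several were abundant. *SLC2A1* and *SLC2A3*, the glucose transporters GLUT1 and GLUT3, were at 599 ± 62.3 and 325 ± 24.4 FPKM, and *LDHA* and *LDHB* at 1357 ± 97.3 and 652 ± 37.6 FPKM.

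A member led in 6 of 10 lineage families and 8 of 10 growth families. *CDX2* led *CDX1* by a log2 ratio of 6.65 ± 0.29, and *CDX4* was silent. Among GATA factors *GATA2*, a factor best known from blood and endothelium, led with 15.2, 14.1 and 15.3 FPKM, and the gut factors *GATA6* and *GATA4* were at means of 1.03 and 0.010 FPKM. The log2 ratio of *GATA2* to *GATA6* was 3.88 ± 0.79. *HNF4A* led *HNF4G* by 3.32 ± 0.04, *ZEB1* led *ZEB2* by 4.08 ± 0.24 and *SNAI1* led *SNAI3* by 1.96 ± 0.62. Among growth genes, *MYC* led *MYCL* by 6.04 ± 1.14, the ratio with the largest SD of all 79 families. *CCND1* led *CCND3*, at 39.8 ± 4.42 FPKM, by 3.55 ± 0.43 and *CDK4* led *CDK6* by 1.93 ± 0.40, while *CCNE1* at 14.6 ± 3.43 and *CCNE2* at 12.5 ± 3.77 FPKM differed by 0.25 ± 0.15. In reads not divided by length both orders turned, with log2 ratios of -0.61 for *CDK4* to *CDK6* and -0.29 for *CCNE1* to *CCNE2*. *CCNA2* was at 46.7 ± 6.38 FPKM and *CCNA1*, the germ cell cyclin A, was silent. *MDM2* led *MDM4* by 1.86 ± 0.06, at 22.6 ± 2.9 against 6.19 ± 0.988 FPKM.

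Signalling families were shared between paralogues more often. A member led in 5 of 15. *HRAS* was at 43.6, 37 and 34.9 FPKM and *NRAS* at 25.5, 28.7 and 25.8 FPKM, and neither led. *HRAS* has the shorter transcript by the length behind its FPKM, 1156 bases against 4454 for *NRAS*, and in reads *HRAS*, with 5402, was below *NRAS*, with 14270. *ARAF* at 28.1 ± 3.04 FPKM was above *BRAF* at 4.24 ± 0.648 FPKM in every library. *AKT1* led *AKT2* by a log2 ratio of 1.55 ± 0.06, *MAP2K2* led *MAP2K1* by 1.51 ± 0.13 and *PIK3CB* led *PIK3CA* by 1.49 ± 0.10, with *PIK3CG*, the catalytic subunit of blood cells, silent. In the Wnt pathway *TCF7* at 32 ± 7.63 was above *TCF7L2* at 17.1 ± 1.72 FPKM, by a ratio of 0.88 ± 0.23 that fell short of the 2-fold rule. *LGR6* at 6.62, 5.64 and 6.87 FPKM and *LGR4* at 3.36, 4.12 and 7.09 FPKM were the R-spondin receptors detected, in an order that turned in replicate 3 and in reads not divided by length. *FZD6* was the highest of 10 Frizzled receptors at 17.6 ± 1.8 FPKM, and 8 of the 10 were detected, against 60.6% of all genes.

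Chromatin families had a leading member in 5 of 8, translation families in 7 of 7 and cytoskeletal families in 3 of 11. *EZH2*, the Polycomb methyltransferase of dividing cells, led *EZH1* by a log2 ratio of 2.71 ± 0.36, *DNMT1*, the maintenance DNA methyltransferase, led *DNMT3A* by 2.78 ± 0.23, and *SMARCA4* led *SMARCA2*, the other ATPase of SWI/SNF, by 1.98 ± 0.35. *CTCF* was at 32.1 ± 7.04 FPKM and *CTCFL*, its germ cell paralogue, at a mean of 0.0189 FPKM. In translation, *RPL3* led *RPL3L*, the form of muscle, by 12.34 ± 0.22, and *RPL39L* of testis was silent, while *EEF1A2*, the elongation factor of muscle and neurons, was detected at 199.8 ± 22.7 FPKM beneath *EEF1A1*. The cytoskeleton was built from several members at once. *ACTB* and *ACTG1* differed by 0.12 ± 0.07, with the order turned in reads not divided by length, and *TUBB* and *TUBB4B* by 0.20 ± 0.11, with the caution that reads of such similar copies may be split between them. Of 10 type II keratins 6 were detected, and of 12 type I keratins 6, in neither case more than the 60.6% of all genes. Among type II keratins *KRT5*, a keratin of basal and squamous epithelia, was second to *KRT8* with 721, 653 and 1007 FPKM. Its usual partner in those epithelia, *KRT14*, is a type I keratin outside the 6 of 12 that were detected, with a mean of 0.208 FPKM. *CDH3*, P-cadherin, was above *CDH1* in every library, at 33.7, 29.5 and 39.1 FPKM.

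**Figure D4:**
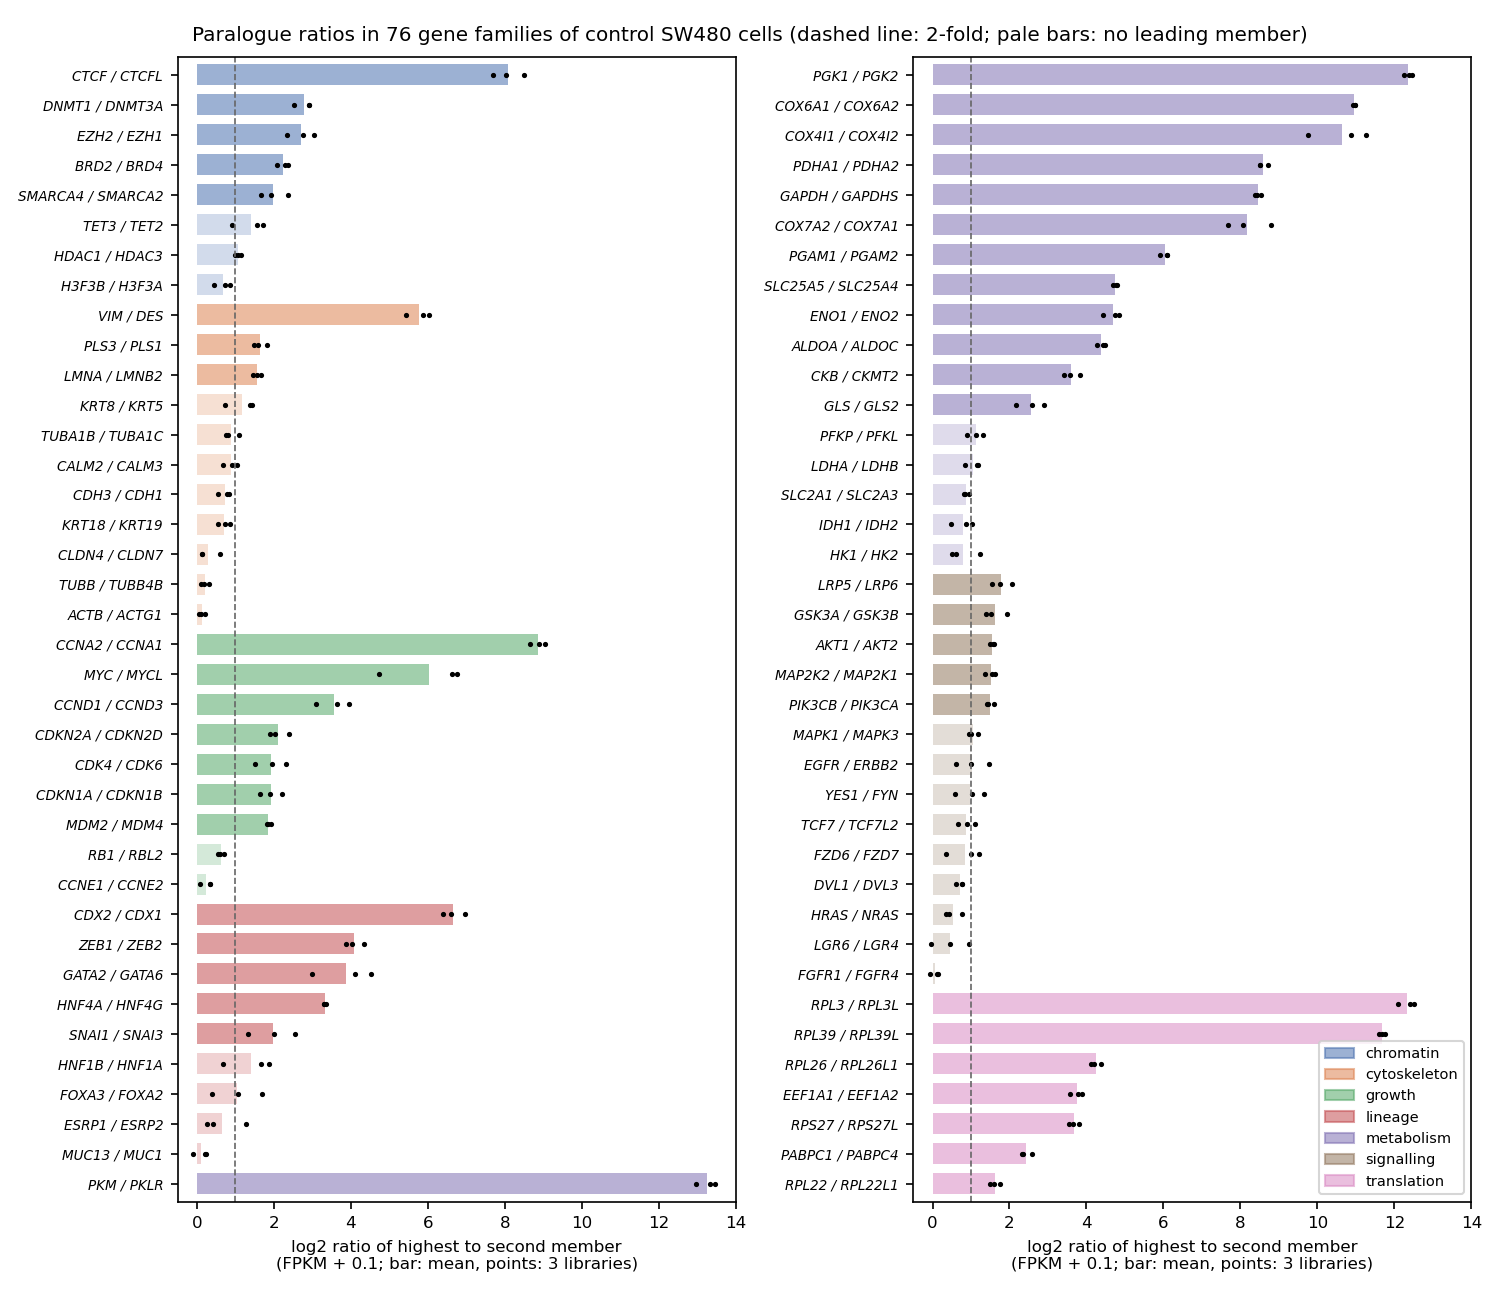
Log2 ratio of the highest to the second member, on FPKM + 0.1, in 76 of the 79 gene families coloured by class, with bars for the mean, points for the 3 control libraries, pale bars where no member led and a dashed line at 2-fold. Ratios run from 0.06 for *FGFR1* and *FGFR4* to 13.26 for *PKM* and *PKLR*, and all 7 translation families lie beyond the line.

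The spread between the libraries was larger than counting of reads gives. Among the 12882 genes that averaged 0.5 FPKM or more, the median SD of log2(FPKM + 0.1) was 0.167, against 0.0393 from the read counts alone. Without replicate 3 the median SD was 0.102. An SD of 0.5 or more was reached by 748 genes (5.81%). The steadiest genes included *SNRNP40*, of the U5 small nuclear ribonucleoprotein, at 40.05, 40.02 and 40.02 FPKM, *UBN1*, a histone chaperone, at 18.3, 18.3 and 18.3 FPKM, and *RPS6*, of the small ribosomal subunit, at 901, 902 and 899 FPKM. These 3 lie below the SD that counting alone gives. By list, the median SD was 0.0674 for ribosomal proteins, 0.0863 for housekeeping genes, 0.110 for cholesterol synthesis, 0.146 for the cell cycle, 0.295 for HOX genes, 0.308 for Wnt targets, 0.367 for colon transcription factors and 0.551 for interferon-stimulated genes. Without replicate 3 these became 0.0607, 0.0655, 0.0616, 0.0693, 0.133, 0.0803, 0.157 and 0.104. For ribosomal proteins and housekeeping genes the median SD was lowest without replicate 2, at 0.0373 and 0.0490. For the other lists named it was lowest without replicate 3. An SD over 2 libraries is not on an equal footing with an SD over 3.

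Genes that set a single library apart did so mostly in replicate 3. Where 2 libraries lay within 1.2-fold of each other and the third was more than 2-fold away from both, the third was replicate 3 for 114 genes above and 52 below, replicate 1 for 7 and 4, and replicate 2 for 0 and 4. Of the 12882 genes, replicate 3 was lowest for 3692 (28.7%) and highest for 6633 (51.5%), and its median shift from the mean of replicates 1 and 2 was 0.09 on the log2 scale, which median-ratio scaling changed to -0.01 and quantile normalization to 0.02. Among the 20 genes with the largest SD at a mean of 5 FPKM or more, 7 were interferon-stimulated genes, all lowest in replicate 3. *IFI6*, an interferon-induced protein of mitochondria, was at 162, 169.8 and 21.3 FPKM. *MX1*, an antiviral GTPase, was at 30.6, 30.4 and 5.65 FPKM, and *IFI27* at 54.6, 53.5 and 12.9 FPKM. *OAS1* and *OAS3*, which make the 2-5A messenger on double-stranded RNA, were at 13.4, 15.4 and 4.03 FPKM and at 32.6, 36.7 and 13.2 FPKM. *MX2* and *IRF9*, the DNA-binding subunit of the interferon-activated complex ISGF3, were at 9.75, 7.9 and 1.91 FPKM and at 19.6, 17.2 and 6.98 FPKM.

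This held for the interferon-stimulated genes as a list. Of 52 genes 42 (80.8%) were detected, against 60.6% of all genes, and none was silent. Their summed level was 1748, 1738 and 1007 FPKM in replicates 1 to 3. Of the 48 that averaged 0.5 FPKM or more, 43 were lowest in replicate 3, against 28.7% of all genes, and the median shift of replicate 3 from the mean of the other two was -0.92 on the log2 scale, with -1.02 under median-ratio scaling, -1.09 under quantile normalization and -0.95 under TPM scaling. *ISG15*, a ubiquitin-like modifier, was at 232, 239.7 and 92.7 FPKM. The 4 genes that were highest in replicate 3 were *STAT2* at 8.85, 7.97 and 12.8 FPKM, *IFITM2*, *PARP10* and *TRIM21*, named here after their values were seen. The genes of interferon λ moved alongside. *IFNL3* was at 1.98, 2.22 and 0 FPKM, *IFNL2* at 1.31, 2.1 and 0 FPKM and *IFNL1* at 0.94, 1.44 and 0 FPKM. *IFNL3* and *IFNL2* rested on 57 and 43 reads in replicate 1, 51 and 55 in replicate 2 and none in replicate 3. For *IFNL1* the length search stopped at 214 bases, against 643 for *IFNL3* and 734 for *IFNL2*. Its recovered 9 and 11 reads in replicates 1 and 2 may therefore be too few. These 3 genes are close copies of each other, so single reads may be shared. None of 17 type I interferon genes was detected and 12 were silent. A single library against 2 allows no test, and the part of handling, depth or transfection in this pattern was not tested.

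Other lists shifted upward in replicate 3. Of 19 colon transcription factors that averaged 0.5 FPKM or more, 17 were highest in replicate 3, against 51.5% of all genes, with a median shift of 0.60 that became 0.50 under median-ratio scaling and 0.40 under quantile normalization. Of 19 Wnt targets 15 were highest in replicate 3, with a median shift of 0.37 that became 0.27 and 0.36, although *CCND1*, *MYC* and *DKK1*, the 3 most abundant, were lowest there. Of 33 HOX genes 22 were highest in replicate 3, with a median shift of 0.33 that became 0.23 and 0.22, and the HOXA cluster had a median of 0.55. The 29 cell cycle genes had a median shift of -0.19, with 21 lowest in replicate 3, against 28.7% of all genes, and it was -0.29 under median-ratio scaling and -0.14 under quantile normalization. Immediate early genes shifted by 0.05 as deposited but by -0.05 under median-ratio scaling and -0.13 under quantile normalization, and cholesterol synthesis genes by 0.07 as deposited but by -0.03 under median-ratio scaling, so neither has a fixed direction. Ribosomal proteins shifted by 0.02 as deposited and by -0.08 under median-ratio scaling. Outside these lists, *CD99*, a surface glycoprotein whose gene has copies on both sex chromosomes, was at 38.9, 32.6 and 2.37 FPKM, and *GRB7*, an adaptor of receptor kinases, at 2.7, 1.84 and 11 FPKM. *F3*, tissue factor, was at 32.4, 34.3 and 10.8 FPKM and *DBP*, a clock-controlled transcription factor, at 4.14, 3.07 and 10.7 FPKM. *FAM156A* at 15.1, 1.05 and 1.66 FPKM and *LIMS4* at 6.36, 4.17 and 22.2 FPKM have near-identical copies, and their values are uncertain. *FAM156A* was the one of the 20 genes that set replicate 1 apart.

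**Figure D5:**
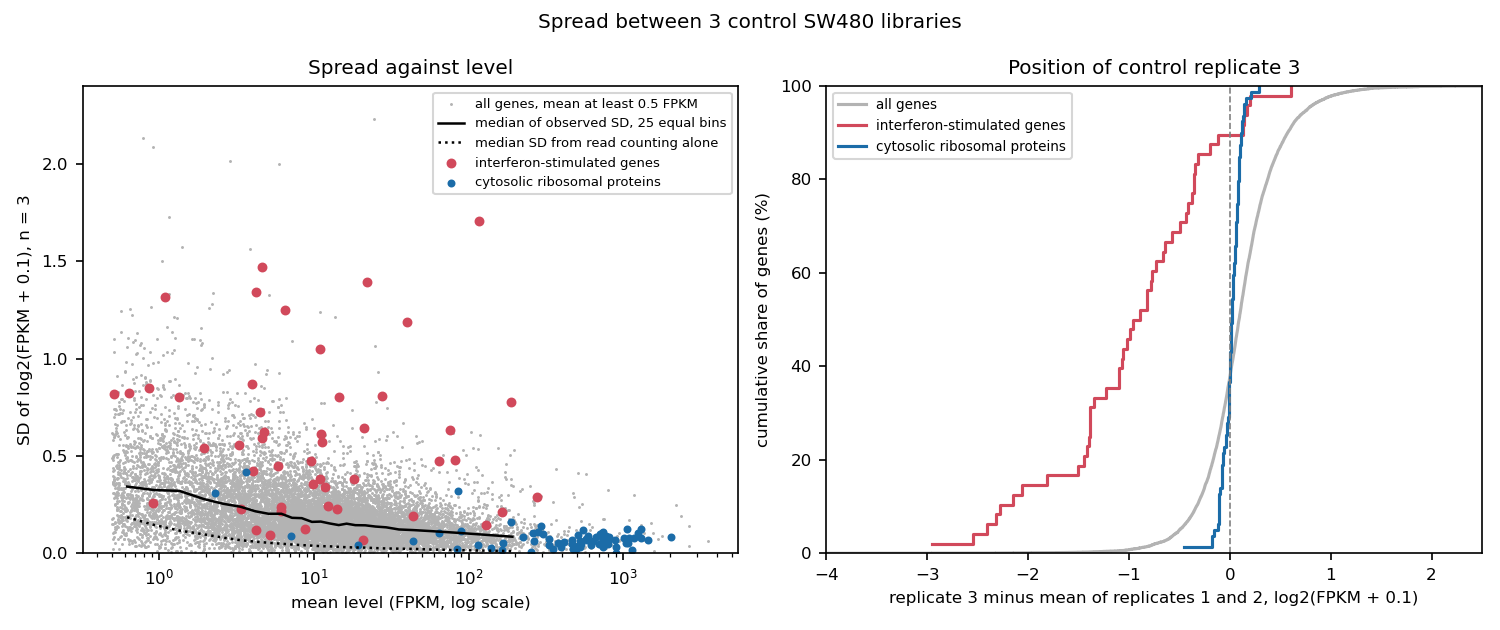
Left, SD of log2(FPKM + 0.1) over the 3 control libraries against mean FPKM on a log axis for 12882 genes (grey), with the median SD in 25 bins (line), the median SD from counting alone (dotted), interferon-stimulated genes (red) and ribosomal proteins (blue). Right, cumulative share of genes by the shift of replicate 3 from the mean of replicates 1 and 2, where the interferon-stimulated genes have a median of -0.92 and all genes a median of 0.09.

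The promoters of the most variable interferon-stimulated genes are shown because these genes moved together. Interferon-activated complexes are known to bind pairs of GAAA blocks, so the RefSeq promoter windows on GRCh38.p14, the 250 bases before each start, were searched for GAAANNGAAA, with N for any base, on both strands. This motif was found in 3.02% of all 34943 windows. *IFI6* held 3 matches, which begin at positions -156, -115 and -93 from the start, in chr1:27672193-27672442 on the minus strand. *OAS3* held 2, at -143 and -12, in chr12:112938224-112938473 on the plus strand, and *IFI27* held 2 at the first of its 2 listed starts, at -108 and -95, in chr14:94110486-94110735 on the plus strand. *OAS1*, in chr12:112906712-112906961 on the plus strand, and *IRF9* had none with these letters, and of the 3 listed starts of *MX1* 1 held a match. The *OAS1* window does hold a pair of GAAA blocks 1 base apart near its end, which this pattern cannot match. Another listed start of *MX1* holds such pairs on the opposite strand. A window without a match here is thus not one without GAAA pairs. For *MX2* no window was used here. The sequences run 5′ to 3′, and capitals mark the matches.
IFI6: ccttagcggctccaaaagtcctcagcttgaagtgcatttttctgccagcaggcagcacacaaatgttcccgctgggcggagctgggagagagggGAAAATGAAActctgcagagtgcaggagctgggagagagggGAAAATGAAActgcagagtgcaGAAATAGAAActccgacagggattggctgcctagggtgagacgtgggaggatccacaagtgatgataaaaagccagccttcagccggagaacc
OAS3: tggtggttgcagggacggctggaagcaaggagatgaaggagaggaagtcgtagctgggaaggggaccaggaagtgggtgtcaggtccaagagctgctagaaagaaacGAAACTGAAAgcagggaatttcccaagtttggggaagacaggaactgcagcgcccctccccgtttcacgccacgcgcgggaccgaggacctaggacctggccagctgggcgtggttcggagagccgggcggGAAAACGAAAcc
IFI27: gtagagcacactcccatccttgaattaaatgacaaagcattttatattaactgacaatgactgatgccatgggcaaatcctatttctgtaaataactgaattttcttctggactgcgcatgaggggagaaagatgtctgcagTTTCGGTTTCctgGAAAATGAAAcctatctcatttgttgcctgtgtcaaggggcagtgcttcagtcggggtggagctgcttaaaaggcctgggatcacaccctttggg
OAS1: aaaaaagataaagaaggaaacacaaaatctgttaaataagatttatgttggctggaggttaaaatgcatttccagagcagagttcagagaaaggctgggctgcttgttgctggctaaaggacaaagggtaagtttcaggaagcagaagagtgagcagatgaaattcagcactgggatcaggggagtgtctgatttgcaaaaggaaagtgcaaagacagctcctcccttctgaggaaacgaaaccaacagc
A match is a string of letters and not a measured binding site, and no share over the whole list is given, since 41 of its 52 genes (78.8%) had a window, fewer than the 80% set for such a check.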

How the data were processed

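Total RNA of SW480 cells was enriched for mRNA with oligo(dT) beads, fragmented, primed with random hexamers and sequenced on the Illumina HiSeq2000 platform by the authors. No step that keeps the strand is described, so a gene and its antisense partner cannot be told apart. The authors deposited FPKM values for 19225 symbols. The aligner, counter, genome build and annotation are not given in the sources used here. The column letters do not spell out the groups. Columns lettered G were read as control and those lettered M as the other group, and only the number matches the replicate in the sample titles.

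FPKM is reads divided by gene length and library total. Totals and lengths were both found by search, with all 6 columns used only to find the value of 1 read. The shortest length at which all values of a gene gave whole reads was taken. All 17189 genes above 0 came within 0.002 of a read, which was the rule of acceptance and no check of the lengths. Where the reads of a gene share a factor, its length and reads may be too small. On simulated data of 2955 genes, 98.7% came back exactly. Depth was 35653629 to 44729596 reads per library, and intervals from read counts cover counting error only. Detection was set at 1 FPKM in all 3 libraries, and spread used log2(FPKM + 0.1) for genes that averaged 0.5 FPKM or more. Paralogue ratios were tested with an exact two-sided sign-flip permutation test in scipy 1.17.1. Tables used Python 3.11.15, numpy 2.4.6 and pandas 2.3.3, plots matplotlib 3.10.9.

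The 21 gene lists, 79 families and 39 HOX genes were written from general knowledge, and members and lists were chosen with earlier results of these data known. Genes were named by rule. These were the 20 highest by mean, list members (the 3 highest, the 3 lowest and those at 0, and any member of the lineage, oncogene and tumour suppressor lists), the first and second of each family, HOX genes, the 20 most and 10 least variable at 5 FPKM or more, and at most 5 genes at 0 in 1 library and at 1 FPKM or more in another. The 10 families picked by symbol pattern and other genes said to be so were chosen after values were seen, as was the scaling of replicate 3 shifts by list. A planned comparison of promoter composition by level was void, since 15228 symbols (79.2%) matched a RefSeq window, fewer than the 80% set for it. *MAGEA3*, *MAGEA12*, *XAGE1A* and *BAGE* were not analysed here. A few other list and family members enter the counts, but their own values are not reported here and are left out of the plots. Alternatives were other thresholds, pseudocounts and scalings, reads in place of FPKM, and each library left out in turn.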

Additional observations from a re-analysis of the deposited data

How the results depend on the processing

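The number of silent genes rose from 2409 to 3641 when up to 3 reads in each library were allowed and to 4334 when the limit was 0.1 FPKM. Families with a leading member fell from 47 to 30 with a 5-fold rule. The 20 most abundant genes held 6.68% of the reads, against 8.84% of FPKM. Counting reads without division by length turned the order of 8 pairs, with log2 ratios of -1.42 for *HRAS* to *NRAS*, -0.61 for *CDK4* to *CDK6*, -0.29 for *CCNE1* to *CCNE2*, -0.20 for *LGR6* to *LGR4*, -0.14 for *HK1* to *HK2*, -0.082 for *GSK3A* to *GSK3B*, -0.056 for *ACTB* to *ACTG1* and -0.051 for *DVL1* to *DVL3*, so these orders rest on the lengths behind FPKM. Leaving out each library in turn gave 11738 to 11778 detected genes, 2608 to 2768 silent genes, 47 to 57 families with a leading member, a share of 8.66% to 9.0% for the 20 most abundant genes and a median SD of 0.102 to 0.167, with the lowest SD without replicate 3. Detected genes numbered 8660 at 5 FPKM, 12497 at 0.5 FPKM and 12743 with TPM scaling. At 5 FPKM the count of detected members moved by more than 1.5-fold in 11 lists or HOX clusters. Among these, colon transcription factors fell from 15 to 8, mesenchymal genes from 11 to 5 and interferon-stimulated genes from 42 to 27. The median SD lay between 0.145 and 0.186 under other pseudocounts, filters and scalings. Levels near 0 rest on a few reads and are limited by depth. No paired analysis was possible because a single group was described.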

Other observations

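Families picked by their symbols after the values were seen differed widely in the share detected. Of 374 olfactory receptor genes, 3 were detected and 325 were silent, against 60.6% and 12.5% of all genes. Of 91 keratin-associated protein genes of hair, 2 were detected, *KRTAP2-3* at 10.7, 8.48 and 2.53 FPKM and *KRTAP3-1* at 8.81, 7.46 and 3.56 FPKM, and 71 were silent. Of 37 β-defensin genes 34 were silent and none was detected, and none of 24 bitter taste receptor genes was detected, with 9 silent. Of 17 voltage-gated potassium channel genes 2 were detected. At the other end, 37 of 39 proteasome subunit genes were detected, with the 2 subunits of testis and thymus, *PSMA8* and *PSMB11*, silent, and 77 of 78 mitochondrial ribosomal protein genes were detected. Of 507 zinc finger genes named ZNF 351 (69.2%) were detected, near the 60.6% of all genes, and 42 were silent. Of 13 genes of the HLA class II region, 6 were detected, led by *HLA-DQB1* at 7.99 ± 1.78 FPKM (SD, n = 3).

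The 3 detected olfactory receptor genes lie side by side. In the RefSeq gene order on GRCh38.p14, *OR51B4*, *OR51B2* and *OR51B5* are the next 3 protein-coding genes after *HBE1*, which encodes the ε-globin of embryonic red cells. *HBE1* was at 26.6, 26.2 and 34.4 FPKM in replicates 1 to 3. *OR51B5* was at 11.7, 13 and 17 FPKM, *OR51B4* at 4.0, 4.54 and 11.2 FPKM and *OR51B2* at 2.82, 2.53 and 2.59 FPKM. The next gene on that side, *OR51B6*, was at 0.31, 1.02 and 0.635 FPKM. Whether reads of 1 transcript were assigned to several of these genes cannot be seen from values per gene.

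A few genes were at 1 FPKM or more in a library and at 0 in another. Besides *IFNL2* and *IFNL3*, and *IFNL1* with the same pattern, *HBA2* was at 1.03, 0 and 0.329 FPKM, from 28, 0 and 8 reads, and it has a near-identical copy.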
